A study of Mus musculus with 6 samples.

Results

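The immunoglobulin heavy and light chain genes were described across 6 mouse RNA sequencing libraries, with most weight on the NG2 cell libraries, in which nearly all of their reads lay. Members were genes whose symbol names a V, D, J or constant region gene of the heavy chain (Igh), kappa (Igk) or lambda (Igl) locus and that had at least 10 raw counts summed over the 6 libraries. The rule kept 211 genes of 251 with such a symbol, out of 38561 counted gene identifiers, and 21 of the 251 had no count. The members were chosen by their raw counts summed over all 6 libraries, and their high level in NG2 cells was known when they were chosen, so the levels below are descriptions. Just inside the minimum lay Ighv1-56 and Igkv13-85 with 10 counts each, and just outside it lay Ighv1-43 and Ighv6-5 with 9 counts each.

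All 3 groups, of 2 libraries each, came from NG2-Cre;p53flox/flox mice of mixed background, so the control cells carried the same Cre and floxed Trp53 alleles as the tumours. The Cre is driven from the gene of NG2 (Cspg4), a proteoglycan of pericytes, and the floxed gene encodes the tumour suppressor p53. NG2 cells were sorted out of normal skeletal muscle with an antibody to NG2. The osteosarcomas were primary tumours of the right tibia (replicate 1) and the spine (replicate 2), and the soft tissue sarcomas were primary subcutaneous tumours. Neither the ages of the mice nor their number was given in the sources used here, and each p-value therefore reflects only how far these libraries varied, which may be technical. In bulk samples, fewer cells of a type and less RNA per cell cannot be told apart.

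An antibody is built from paired heavy and light chains. In developing B cells the variable end of each chain is assembled by joining a V segment to a J segment, with a D segment between them in the heavy chain. A B cell first uses the mu constant region (IgM) and can later switch the heavy chain to a gamma, epsilon or alpha constant region (IgG, IgE, IgA), while plasma cells make the same RNAs in much larger amounts for secretion. Pericytes are not known to rearrange these loci.

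Counts on genes lay between 27693585 and 58126832 per library. The members held 384282 of 39453073 counts in NG2 cell replicate 1, a share of 0.974% (95% exact binomial interval 0.971% to 0.977%). In NG2 cell replicate 2 they held 2274926 of 44622315 counts, 5.10% (5.09% to 5.10%). Their shares were 0.00445% and 0.000768% in the osteosarcomas and 0.00909% and 0.00521% in the soft tissue sarcomas. The NG2 cell replicates thus differed from each other more than 5-fold in the summed members, and each is given separately below. Intervals cover counting error only, since the cDNA was amplified by PCR without molecular identifiers. Lanes of the flow cell followed the groups, 4 for NG2 cells, 5 for osteosarcoma and 6 for soft tissue sarcoma, so lane and group cannot be told apart. Reads that overlapped no gene made up 33.2% in both NG2 cell libraries and 19.5% to 23.4% in the tumours.

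By locus, the 211 members were 95 V, 4 D, 4 J and 7 constant region genes of Igh on chromosome 12, 91 V and 5 J genes and Igkc of Igk on chromosome 6, and 3 V genes and Iglc2 of Igl on chromosome 16 (GRCm38). One of the kappa V members was annotated as a pseudogene. GENCODE M21 lists 8 heavy chain constant region genes; Ighd, the gene of IgD, was not analysed here. Of 4 lambda constant region genes Iglc2 was counted, and Iglc1, Iglc3, Iglc4 and the lambda J segments were not analysed here. Of all members' counts in NG2 cells, heavy chain constant regions held 34.4% in replicate 1 and 42.6% in replicate 2. Igkc held 32.0% and 28.0%, kappa V segments 22.8% and 21.6%, and heavy chain V segments 5.72% and 4.07%. The split between constant and variable genes was therefore similar in libraries whose summed level differed more than 5-fold.

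Ighm (ENSMUSG00000076617; chromosome 12, 113418558 to 113422730, minus strand), the constant region of IgM, had levels of 2994 and 8566 CPM in NG2 cell replicates 1 and 2. Its levels were 42.7 and 5.08 CPM in the osteosarcomas and 72.2 and 35.8 CPM in the soft tissue sarcomas. CPM are read counts normalised to library size with TMM scaling between libraries. Ighm was the member with the most counts in each of the 4 tumours, and both NG2 cell libraries lay above all 4. Ighg1 (ENSMUSG00000076614; chromosome 12, 113325240 to 113330523, minus strand), the constant region of IgG1, reached 539 and 11905 CPM in NG2 cells. It had 0 counts in both osteosarcomas and reached 1.29 and 0.337 CPM in the soft tissue sarcomas. In replicate 2 of NG2 cells it stood above Ighm, and in replicate 1 it stood far below it. Igkc (ENSMUSG00000076609; chromosome 6, 70726435 to 70726966, plus strand), the kappa constant region, reached 3403 and 14586 CPM in NG2 cells. The osteosarcomas held 0.114 and 1.32 CPM of it, and the soft tissue sarcomas 4.97 and 4.21 CPM. Igkc was the highest constant region gene in both NG2 cell libraries.

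**Figure D1:**
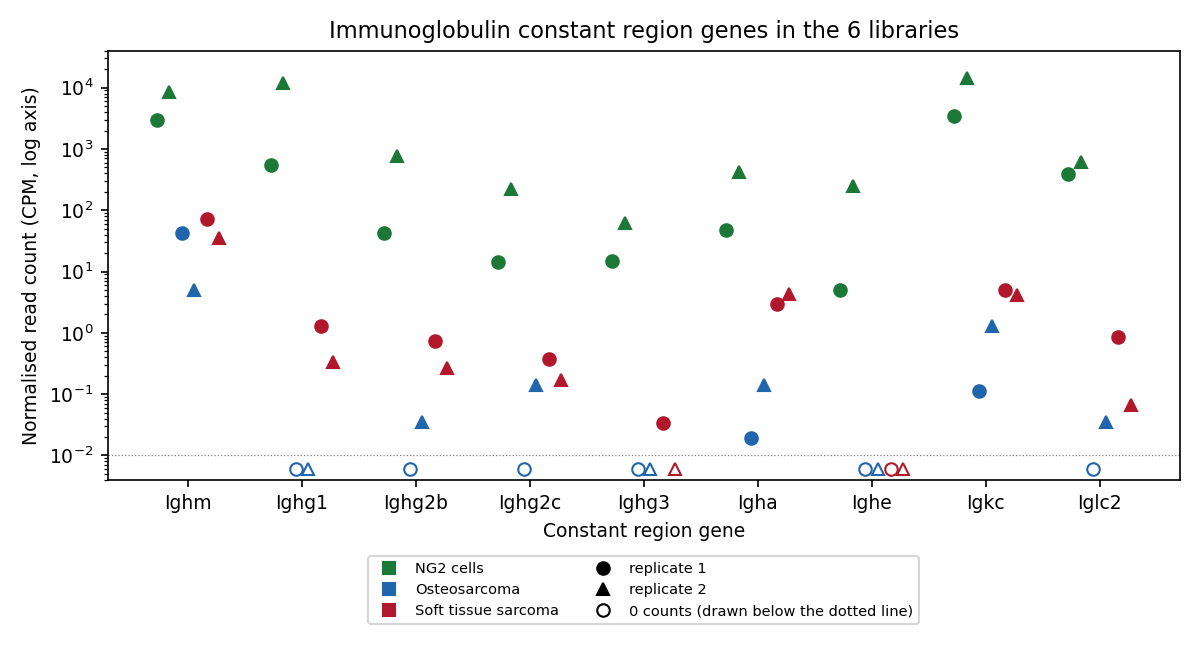
Normalised read counts (CPM, log axis) of the 9 constant region genes in the 6 libraries, 1 point per library, with open points for 0 counts. Both NG2 cell libraries lie above all 4 tumours for each gene, and replicate 2 lies above replicate 1 for each gene; Ighe has 0 counts in all 4 tumours.

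Of the other heavy chain constant regions, Igha (ENSMUSG00000095079; chromosome 12, 113254830 to 113260236, minus strand), which encodes that of IgA, reached 47.3 and 424 CPM in NG2 cells. The osteosarcomas held 0.0190 and 0.142 CPM of it, and the soft tissue sarcomas 2.94 and 4.38 CPM. Ighe, the constant region of IgE, had 179 and 10954 counts in NG2 cells and 0 in each tumour. The remaining IgG subclasses were lower than Ighg1 in both NG2 cell libraries: Ighg2b had 1565 and 33508 counts, Ighg2c 513 and 9695, and Ighg3 538 and 2661. Iglc2 (chromosome 16, 19198396 to 19200351), a lambda constant region, reached 389 and 608 CPM in NG2 cells. Its counts were 0 and 1 in the osteosarcomas, 52 and 2 in the soft tissue sarcomas.

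As a share of heavy chain constant region counts, IgM made up 81.9% (81.6% to 82.1%) in NG2 cell replicate 1 and 38.6% (38.5% to 38.7%) in replicate 2. The mean was 60.2% ± 30.6 (SD, n = 2), so it describes neither library. IgG1 took 14.7% in replicate 1 and 53.6% in replicate 2, and all IgG together 16.7% and 58.4%. IgA took 1.29% and 1.91%, and IgE 0.136% and 1.13%. The order of classes thus changed between the NG2 cell libraries, from IgM before IgG1 to IgG1 before IgM, by far more than counting error. Per kilobase of annotated exon, Ighm stood at 1588 and Ighg1 at 208 CPM in replicate 1, and both were nearly level in replicate 2 at 4542 and 4593 CPM, so that IgG1 lay above IgM there in counts but not clearly per length. A difference between 2 libraries of 1 group has no replicate of its own, and with 2 libraries per group an exact permutation test cannot give a p below 0.333. Counts per kilobase of annotated exon put IgM at 65.8% ± 28.4 (SD, n = 2).

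**Figure D2:**
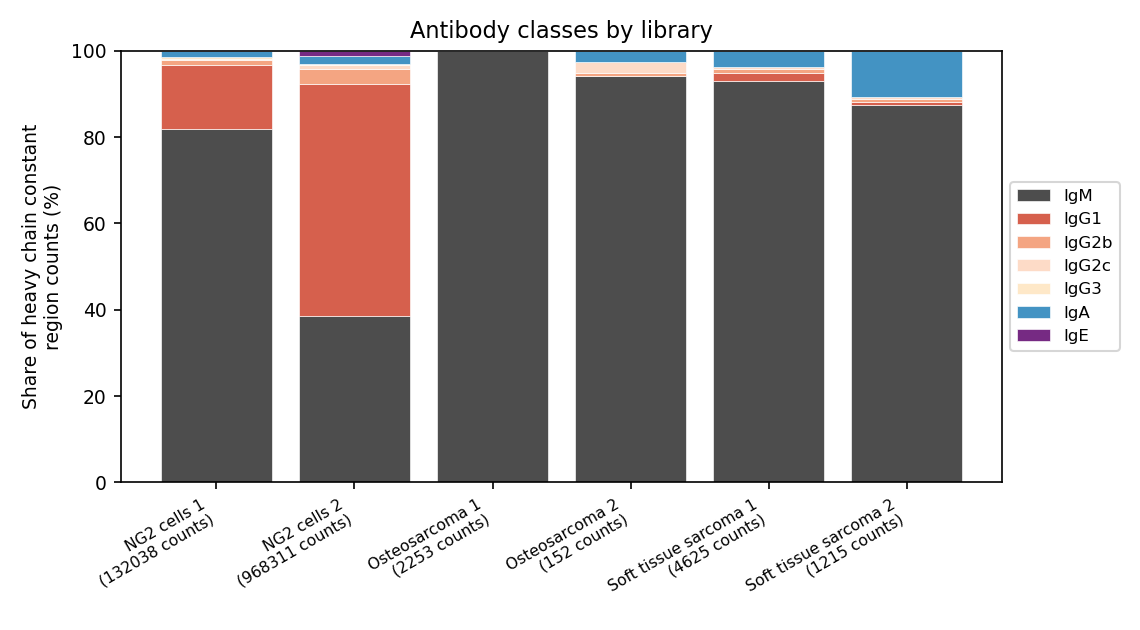
Shares of heavy chain constant region counts (%) by antibody class, 1 bar per library, with the number of counts under each bar. IgM falls from 81.9% in NG2 cell replicate 1 to 38.6% in replicate 2, and it holds 87.4% or more in each tumour.

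Within the switched classes (IgG, IgA and IgE) the make-up was closer between the NG2 cell libraries. Ighg1 held 81.2% of switched counts in replicate 1 and 87.3% in replicate 2, and Igha held 7.13% and 3.11%. In soft tissue sarcoma the order was different, with Igha at 54.7% (49.1% to 60.2%) of 320 switched counts in replicate 1 and at 85.0% (78.3% to 90.2%) of 153 in replicate 2. Ighg1 held 24.1% and 6.54% there. Both soft tissue sarcomas therefore lay above both NG2 cell libraries in the alpha share, a difference that 2 libraries per group are too few to test. The osteosarcomas had 1 and 9 switched counts, too few for shares.

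For the light chains, kappa held 89.7% of constant region counts in NG2 cell replicate 1 and 96.0% in replicate 2, a mean of 92.9% ± 4.42 (SD, n = 2). By V segments the order of the libraries was the opposite, 96.8% kappa in replicate 1 and 89.3% in replicate 2. The lambda side of the first share rests on Iglc2 alone, while the second rests on Iglv1, Iglv2 and Iglv3. Lambda V counts per Iglc2 count were 0.207 in replicate 1 and 2.22 in replicate 2, whereas kappa V counts per Igkc count were 0.715 and 0.771. The direction of the kappa to lambda difference between the libraries thus depends on which genes are counted. Iglv1 had 1747 and 46060 counts and made up 60.2% and 78.0% of lambda V counts. Iglv3 made up 29.5% and 5.25%, and Iglv2 made up 10.3% and 16.7%; the coding sequences of Iglv1 and Iglv2 are 96.9% identical, so reads could be split between them.

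The summed level of the members did not follow that of the B cell genes. Of 15 B cell identity genes (surface receptors and transcription factors of the lineage), 0 were higher in NG2 cell replicate 2 than in replicate 1, with a median CPM ratio of 0.359. The ratios ran from 0.225 for Tnfrsf13c, the receptor for the survival factor BAFF, to 0.761 for Pou2af1, a transcriptional coactivator of B cells. The summed level of this list was 8571 CPM in replicate 1 and 3097 CPM in replicate 2. Of the 206 members with counts in both libraries 157 were higher in replicate 2, with a median ratio of 2.69, and all 7 heavy chain constant regions were higher, with a median of 15.6 (2.86 to 50.6). The medians of the members and of the B cell genes thus lay on opposite sides of equality between these libraries.

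**Figure D3:**
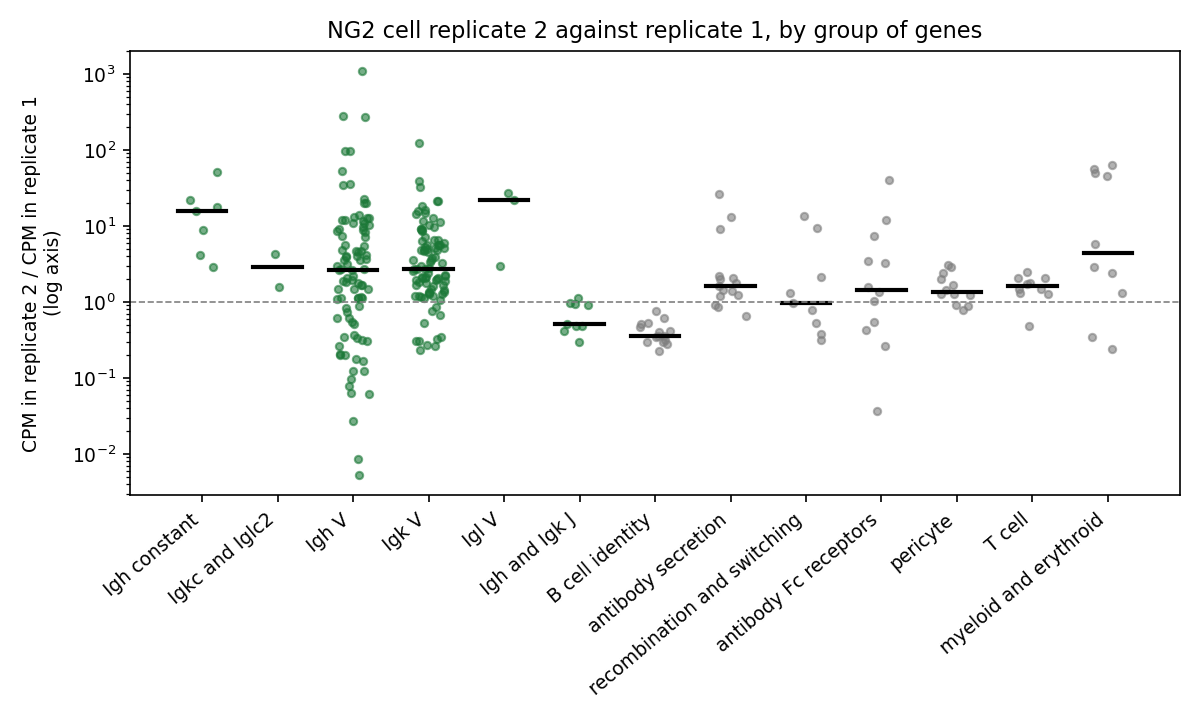
Ratio of CPM in NG2 cell replicate 2 to CPM in replicate 1 (log axis), 1 point per gene with counts in both libraries, by class of immunoglobulin gene (green) and by list of other genes (grey), with black bars at the medians. Heavy chain constant regions lie above 1 (median 15.6), while the B cell identity genes lie below 1 (median 0.359).

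Cd79a, a signalling chain of the B cell receptor, had 1871 and 524 CPM in the NG2 cell libraries and 0.208 to 0.674 CPM in the tumours. Per Cd79a count, replicate 1 held 1.60 counts of Ighm, 1.82 of Igkc and 0.288 of Ighg1, and replicate 2 held 16.4, 27.8 and 22.7. Jchain, which encodes the chain that joins IgM and IgA into polymers, had 193 and 1775 CPM, so Jchain counts per Cd79a count were 0.103 in replicate 1 and 3.39 in replicate 2. Of 15 antibody secretion genes (Jchain, transcription factors of plasma cells and genes of the endoplasmic reticulum) 12 were higher in replicate 2, with a median ratio of 1.64. The share of all genes higher in replicate 2 is not given here, and the T cell and pericyte lists below were also mostly higher there. The largest ratios of the list were those of Derl3 and Tnfrsf17. Derl3, of the pathway that clears misfolded proteins from the endoplasmic reticulum, stood at 1.30 and 34.4 CPM. Tnfrsf17, the plasma cell receptor BCMA, had 0.499 and 6.58 CPM. Irf4, a transcription factor of plasma cells and activated B cells, went the other way with 209 and 137 CPM. Herpud1 did so too, with 905 and 829 CPM, and so did Hsp90b1, with 434 and 372 CPM. Xbp1, which drives the secretory programme, had 56.2 and 116 CPM, and Sdc1, a surface marker of plasma cells, 18.1 and 39.7 CPM.

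Genes of other cells also differed between the NG2 cell libraries. Of 10 T cell genes 9 were higher in replicate 2 (median ratio 1.62), and of 12 pericyte genes 9 were (median 1.36). Of 10 myeloid and erythroid genes 8 were higher there (median 4.39). The erythroid genes Alas2 (39.5 and 9.58 CPM) and Hbb-bs (287 and 100 CPM) were the ones lower in replicate 2. Summed levels in replicates 1 and 2 were 629 and 979 CPM for the T cell list, 802 and 3548 CPM for the myeloid and erythroid list, and 1241 and 1906 CPM for the pericyte list, with a count for all members of each list in both libraries. In the tumours the T cell list summed to 24.9 to 76.5 CPM and the myeloid and erythroid list to 704 to 2434 CPM. The part of these cell types in the immunoglobulin levels was not tested. Cspg4, which encodes the NG2 protein used for the sort, measured 38.6 and 30.6 CPM in the sorted cells, and the tumours spanned 37.7 to 188 CPM.

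Counts of V segments were spread over many genes. Of 95 heavy chain V members 93 had a count in each NG2 cell library, and 11 genes in replicate 1 and 8 in replicate 2 made up the upper 50% of counts. The inverse Simpson index, the number of equally used genes that would give the same concentration, was 26.4 and 21.9 for heavy chain V segments and 25.1 and 18.4 for kappa V segments. Both indices were lower in replicate 2, the library with more counts. The genes named below are the 8 with the largest mean share in each locus.

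Heavy chain V usage differed between the NG2 cell libraries at its top. Ighv5-9-1 (chromosome 12, 113736111 to 113736630) led replicate 1 with 11.5% of heavy chain V counts and had 0.879% in replicate 2. Ighv4-1 had 8.60% in replicate 1 (1890 counts) and 0.0130% in replicate 2 (12 counts). Ighv11-1 (chromosome 12, 113981879 to 113982341) led replicate 2 with 11.7% (10866 counts) and had 0.150% in replicate 1 (33 counts). Ighv4-1 and Ighv11-1 thus each stood near the top of 1 library and far down in the other, at ranks 84 and 66 of 95, while Ighv5-9-1 ranked 29 in replicate 2. Ighv6-3 had 2.67% and 8.44%, and Ighv7-3 had 2.11% and 8.50%. Ighv3-6 with 4.05% and 5.53%, Ighv5-6 with 3.56% and 3.61%, and Ighv1-53 with 2.61% and 3.65% were close in both. Across the 95 genes, which are not independent replicates and share the library's depth, the shares of the libraries correlated with Spearman's rho of 0.455 and Pearson's r of 0.159, and 2 of the 10 highest genes were shared.

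Kappa V usage was more alike. Igkv6-15 (chromosome 6, 70406469 to 70406992) had 10.1% and 10.6% of kappa V counts, and Igkv12-46 had 6.62% and 6.997%. Igkv6-23 (chromosome 6, 70260409 to 70260955) had 4.59% and 14.5%, and Igkv8-30 had 9.92% and 4.62%. Igkv3-4 and Igkv4-59 were higher in replicate 2, with 1.37% and 6.22% for the former and 1.14% and 5.28% for the latter. Igkv12-44 had 4.52% and 1.92%, and Igkv8-21 had 4.44% and 1.93%. Across the 91 kappa V genes rho was 0.825 and r was 0.695, and 4 of the 10 highest were shared. No test of the difference between the heavy chain and kappa correlations was made.

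**Figure D4:**
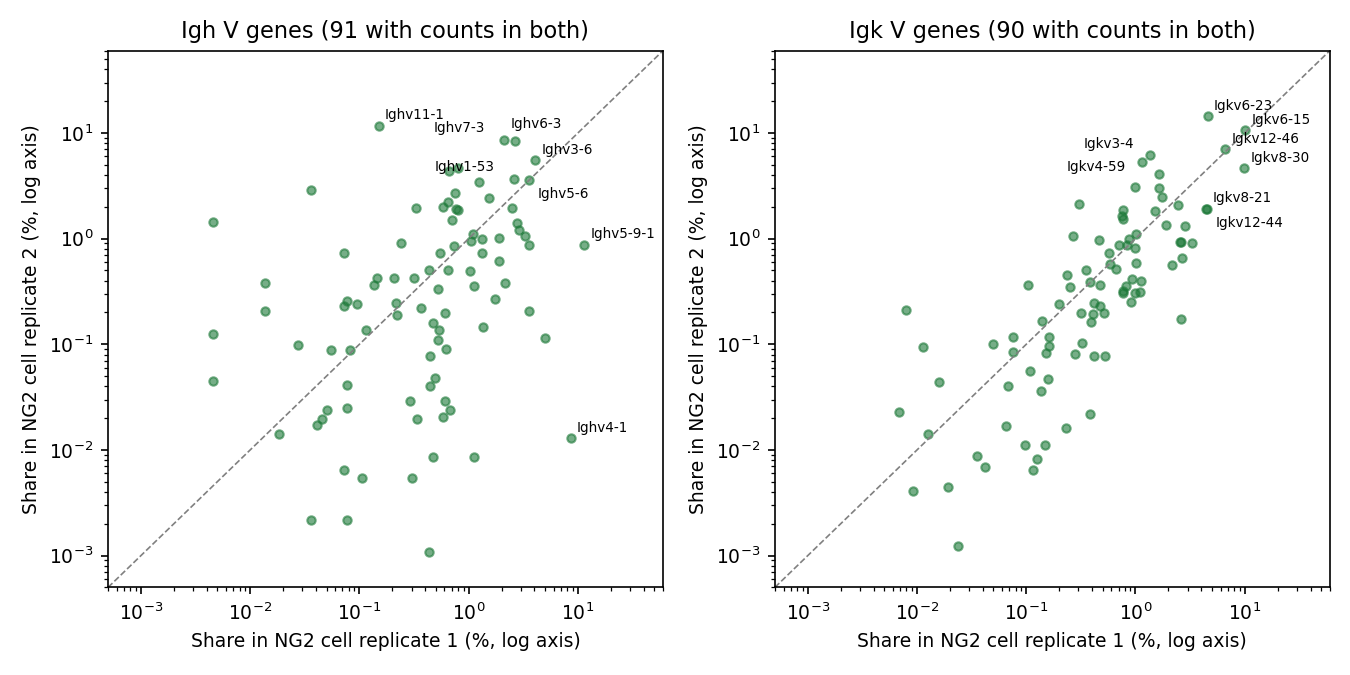
Share of V segment counts of each gene in NG2 cell replicate 1 (x axis, %, log) and replicate 2 (y axis, %, log), for heavy chain (left) and kappa (right) V genes with counts in both libraries, with the line of equality dashed and the 8 genes of largest mean share named. Ighv4-1 and Ighv11-1 lie far from the line on opposite sides, and Igkv6-15 lies on it.

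By family, the Ighv1 genes, 46 of 95 heavy chain V members, held 29.5% of heavy chain V counts in replicate 1 and 25.7% in replicate 2. The 9 Ighv5 genes held 24.3% and 22.8%, so both of these families kept a similar share although single members did not. The Ighv11 family held 0.359% and 12.2% of heavy chain V counts, and its member Ighv11-2 alone held 0.209% and 0.428%. In the kappa locus, the 8 Igkv6 genes held 23.9% and 27.9%, and the 24 Igkv4 genes held 11.0% and 18.0%.

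Some V segments are close copies of each other, which bears on how far a count can be given to 1 gene. The pairs below are shown because they include the gene that led replicate 2 in each locus. Shown are 300 bases of each coding sequence from the GENCODE M21 transcripts (GRCm38; all 4 genes are on the minus strand), 5′ to 3′, with capitals for the bases that differ within a pair. Igkv6-23 and Igkv6-15 are 94.5% identical, with 19 differing bases of 347, of which 17 lie in the stretch shown (bases 1 to 300).
Igkv6-23: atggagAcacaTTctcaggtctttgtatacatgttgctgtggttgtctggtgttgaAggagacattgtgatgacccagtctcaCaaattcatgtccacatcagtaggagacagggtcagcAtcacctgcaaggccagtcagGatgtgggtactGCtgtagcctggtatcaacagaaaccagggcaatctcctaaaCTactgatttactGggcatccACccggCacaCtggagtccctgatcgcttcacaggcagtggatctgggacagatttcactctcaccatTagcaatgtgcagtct
Igkv6-15: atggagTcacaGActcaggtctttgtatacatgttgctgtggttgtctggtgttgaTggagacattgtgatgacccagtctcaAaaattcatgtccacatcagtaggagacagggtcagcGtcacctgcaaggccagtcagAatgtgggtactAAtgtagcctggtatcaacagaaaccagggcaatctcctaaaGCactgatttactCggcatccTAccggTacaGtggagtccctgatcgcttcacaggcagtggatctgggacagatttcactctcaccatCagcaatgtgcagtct
Ighv11-1 and Ighv11-2 (chromosome 12, 114048241 to 114048812) are 98.9% identical, with 4 differing bases of 353, of which 4 lie in bases 22 to 321.
Ighv11-1: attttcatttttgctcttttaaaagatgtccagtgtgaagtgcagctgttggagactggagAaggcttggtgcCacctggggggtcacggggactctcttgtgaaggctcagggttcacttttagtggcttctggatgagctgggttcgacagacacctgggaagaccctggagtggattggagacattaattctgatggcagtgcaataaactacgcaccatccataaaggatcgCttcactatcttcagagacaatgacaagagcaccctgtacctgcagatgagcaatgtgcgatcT
Ighv11-2: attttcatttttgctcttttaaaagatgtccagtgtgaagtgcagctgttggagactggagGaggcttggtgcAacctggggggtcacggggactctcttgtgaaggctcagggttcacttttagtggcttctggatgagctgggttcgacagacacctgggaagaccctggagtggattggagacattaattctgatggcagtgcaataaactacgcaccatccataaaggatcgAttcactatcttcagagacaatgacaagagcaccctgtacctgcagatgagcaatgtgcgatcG
A read over the longest shared stretch of the Ighv11 pair, 162 bases, cannot be told between them, so the Ighv11-1 count is uncertain and the family share is the firmer value.

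J segments are shown because they are short and their counts did not follow the constant regions. Their sequences (GENCODE M21 transcripts, GRCm38, 5′ to 3′) carry in capitals the 12 bases that encode the tryptophan or phenylalanine, glycine, any residue, glycine motif of a J region. Igkj3 has no match to that motif.
Ighj1: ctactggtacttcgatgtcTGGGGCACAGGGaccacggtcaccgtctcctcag
Ighj2: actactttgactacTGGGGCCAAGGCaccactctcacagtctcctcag
Ighj3: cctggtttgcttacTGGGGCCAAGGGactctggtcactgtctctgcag
Ighj4: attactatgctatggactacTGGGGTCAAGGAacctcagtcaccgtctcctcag
Igkj1: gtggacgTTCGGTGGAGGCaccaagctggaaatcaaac
Igkj2: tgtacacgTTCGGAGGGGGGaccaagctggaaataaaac
Igkj3: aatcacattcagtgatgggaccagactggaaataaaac
Igkj4: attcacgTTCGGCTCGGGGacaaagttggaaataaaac
Igkj5: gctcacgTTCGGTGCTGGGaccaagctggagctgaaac
The heavy chain J segments lie at chromosome 12, 113428514 to 113429833, minus strand, and the kappa J segments at chromosome 6, 70722562 to 70723927, plus strand.

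Kappa J counts were 1809 in NG2 cell replicate 1 and 810 in replicate 2, while Igkc counts were 122828 and 636263. All 5 kappa J segments had a lower CPM in replicate 2, with a median ratio of 0.486. Heavy chain J counts were 784 and 867, while heavy chain constant region counts were 132038 and 968311. The counts of J segments thus did not rise with those of the constant regions of their own loci. Reads that overlapped several genes went to a separate counter, with 2.57% and 2.63% of reads in the NG2 cell libraries. How many of them covered a J segment is not known, so J counts need not measure J use in antibody RNA. Among heavy chain J counts Ighj1 held 39.3% and 39.0% and Ighj4 33.3% and 34.5%, so the order was kept. Igkj1 held 73.0% and 58.6% of kappa J counts and Igkj5 10.2% and 13.3%. D members had 113 and 83 counts, led by Ighd1-1 with 43 and 21 and Ighd4-1 with 41 and 55, too few to rank.

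Against NG2 cells, 183 of the 211 members passed the filter on low counts, which a gene can pass through the NG2 cell libraries alone. In osteosarcoma 161 of them were called lower and 0 higher by edgeR's quasi-likelihood test with Benjamini-Hochberg adjusted p under 0.05, where 11% of the 19024 tested genes were called lower, 10.5% higher and 21.5% either way. In soft tissue sarcoma 155 were called lower and 0 higher, where 9.4% of all tested genes were called lower, 9.89% higher and 19.3% either way. Nothing is read from these counts, because the members were chosen with this contrast known, and both comparisons share the NG2 cell libraries. Calls over all tested genes also fell with each library named below left out, so the lower counts are not particular to the members. The count for osteosarcoma lay between 57 and 122 when single libraries were left out (102 without NG2 cell replicate 1, 57 without NG2 cell replicate 2, 104 without osteosarcoma replicate 1). That for soft tissue sarcoma was 77 without NG2 cell replicate 1, 30 without NG2 cell replicate 2, and 0 without either soft tissue sarcoma library, where 165 and 171 members had an unadjusted p under 0.05. For 206 of 211 members the lower NG2 cell library lay above the highest tumour library. Nothing is read from this either, since 139 members had 0 counts in all 4 tumours. The share of all genes that separate in this way was not computed.

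By size, Ighm had a mean of 5780.2 ± 3939.7 CPM in NG2 cells (SD, n = 2) and was 242-fold lower in osteosarcoma and 107-fold lower in soft tissue sarcoma. Igkc, with 8994 ± 7908 CPM in NG2 cells, was 12586-fold and 1960-fold lower, and Igha was 2926-fold and 64.5-fold lower. Ighg1 had 539 and 11905 CPM in the NG2 cell libraries, a mean of 6222 CPM. By that mean it was at least 167778-fold lower in osteosarcoma, where it had 0 counts and the floor of 3 counts over the group was used. That bound does not hold for NG2 cell replicate 1 taken alone. In soft tissue sarcoma Ighg1 was 7640-fold lower. All these folds compare group means, and libraries of 1 group could differ widely. The fold was thus smaller for Ighm than for Igkc in both tumour types.

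In the tumours the members were few. Members with any count numbered 13 and 12 in the osteosarcomas and 51 and 37 in the soft tissue sarcomas, and 139 of 211 had 0 counts in all 4. Ighm held 97.1% and 66.2% of member counts in the osteosarcomas and 81.5% and 73.6% in the soft tissue sarcomas. Ighm counts per Igkc count were 0.880 and 0.587 in NG2 cells. In the tumours this ratio was 375 (2252 Ighm and 6 Igkc counts) and 3.86 (143 and 37) in osteosarcoma, and 14.5 (4305 and 296) and 8.50 (1062 and 125) in soft tissue sarcoma. All 4 tumours lay above both NG2 cell libraries in this ratio. Heavy chain V segments accompanied Ighm only sparsely there, with 0.00823 to 0.0592 V counts per heavy chain constant region count against 0.166 and 0.0956 in NG2 cells.

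**Figure D5:**
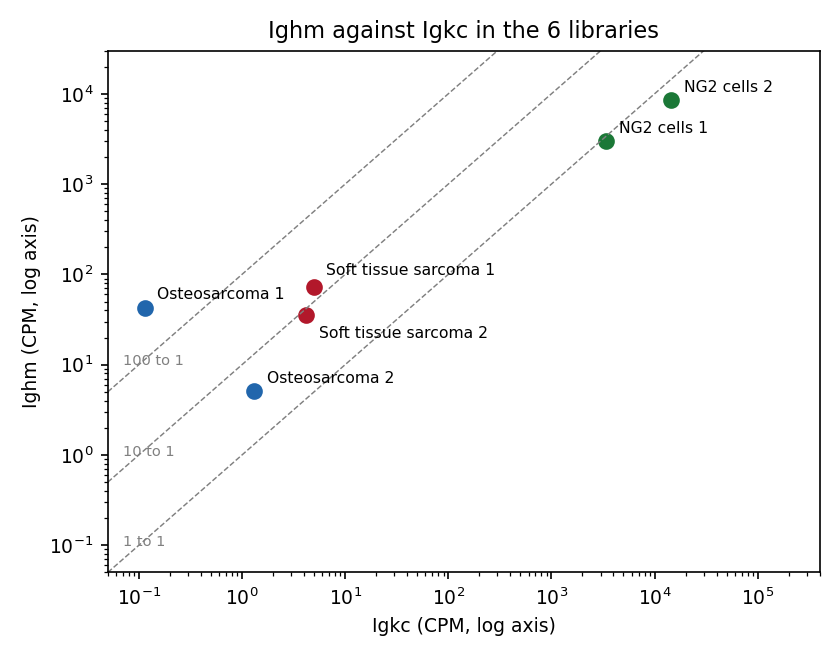
Ighm against Igkc (CPM, both axes log), 1 point per library, with dashed lines at Ighm to Igkc ratios of 1, 10 and 100. The NG2 cell libraries lie just under the 1 to 1 line (0.880 and 0.587 counts of Ighm per count of Igkc), and all 4 tumours lie above it.

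Between soft tissue sarcoma and osteosarcoma, a contrast that the choice of members did not use, 0 of the 183 tested members were called by edgeR at an adjusted p under 0.05, where 0.142% of all tested genes were called, 0.0841% higher and 0.0578% lower. Of these 183 members 113 had 0 counts in all 4 tumours and 21 had at least 10 counts over them, so most could not be called in this contrast and the 0 is not comparable with the share over all genes. At an unadjusted p under 0.05 there were 9 members (4.92%), where 15.9% of all tested genes were. DESeq2 called 9 members, where it called 10.4% of the genes it tested. The smallest p belonging to a constant region was that of Igha, with 1 and 4 counts in the osteosarcomas against 175 and 130 in the soft tissue sarcomas. Igha had a log2 fold change of 5.72 ± 1.41 (SE) with an edgeR adjusted p of 0.155 over 2 libraries per group. Its groups did not overlap, which adds no support for a gene picked by its p. Igkc had a log2 fold change of 2.77 ± 1.14 (edgeR adjusted p = 0.318), and Ighm one of 1.17 ± 1.00 (edgeR adjusted p = 0.631). Igkv12-44 had 0 counts in both osteosarcomas and 14 and 9 in the soft tissue sarcomas (edgeR adjusted p = 0.111).

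The other genes of the antibody system were read from 4 lists. These were chosen with earlier results of these data known, so their counts and medians below are descriptions. Against NG2 cells all 15 B cell identity genes were called lower in both tumour types. Among all tested genes 11% were called lower in osteosarcoma and 9.4% in soft tissue sarcoma. Median log2 fold changes of the list were -8.33 in osteosarcoma and -8.62 in soft tissue sarcoma, beside medians over all tested genes of 0.04 and 0. Without soft tissue sarcoma replicate 1 or 2 the count in that comparison was 0, with 15 at an unadjusted p under 0.05, and without NG2 cell replicate 1 it was 8. Cd22, an inhibitory receptor, stood at 462 and 242 CPM in NG2 cells against 0.966 to 5.92 CPM in the tumours, and Cxcr5, the receptor that guides B cells to follicles, at 305 and 141 CPM against 0.438 to 1.14 CPM. The NG2 cell and tumour libraries did not overlap for either gene. Both were named by their p in osteosarcoma against NG2 cells, so this adds no support.

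Antibody secretion genes were mixed. In osteosarcoma 4 of 15 were called lower and 1 higher, and in soft tissue sarcoma 5 lower and 1 higher. Among all tested genes 21.5% and 19.3% were called either way, and 11% and 9.4% were called lower. The list was not tested against these shares, and nothing is read from its counts. The count in soft tissue sarcoma was 3 without NG2 cell replicate 1 and 0 without either soft tissue sarcoma library, with 7 and 5 at an unadjusted p under 0.05. Mzb1, a chaperone of B cells and plasma cells, stood at 106 and 187 CPM in NG2 cells against 0.151 to 0.498 CPM in the tumours, and Jchain had 0 counts in both osteosarcomas. Herpud1, of the endoplasmic reticulum stress response, stood at 905 and 829 CPM against 135 to 270 CPM. Fkbp11, a folding enzyme of secretory cells, was the gene called higher, at 7.95 and 9.74 CPM in NG2 cells; the osteosarcomas held 334 and 256 CPM, and the soft tissue sarcomas 127 and 146 CPM. Xbp1 and Prdm1, transcription factors of plasma cells that other secretory and immune cells also use, were not called, with edgeR adjusted p of 0.761 and 0.494 in osteosarcoma.

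Of 15 genes of recombination, class switching and germinal centres 10 passed the filter on low counts. In osteosarcoma 5 were called lower, and in soft tissue sarcoma 5 lower and 1 higher (S1pr2, a receptor for a sphingolipid), beside 21.5% and 19.3% of all tested genes called either way. The count in osteosarcoma was 3 without NG2 cell replicate 1. That in soft tissue sarcoma was 1 without NG2 cell replicate 1, 2 without NG2 cell replicate 2, and 0 without either soft tissue sarcoma library, with 6 at an unadjusted p under 0.05. Rag1 and Rag2, the recombinase genes, had at most 0.0554 CPM in any library, and Igll1, of the surrogate light chain, at most 0.582 CPM. Dntt, another gene of recombination, was higher, with 0.360 and 4.81 CPM in NG2 cell replicates 1 and 2. Bach2, a B cell transcription factor, stood at 57.4 and 55.8 CPM in NG2 cells against 4.05 to 9.11 CPM in the tumours. Gcsam and Rgs13, both genes of germinal centre B cells, had 4.74 and 10.2 CPM and 12.02 and 15.8 CPM in NG2 cells, and Rgs13 had 0 counts in all 4 tumours. Vpreb3, of B cell development, stood at 19.1 and 7.24 CPM in NG2 cells with 0 counts in the tumours. Bcl6, the transcription factor of germinal centres, stood at 55.6 and 43.2 CPM against 6.92 to 17.0 CPM.

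Of 12 genes of antibody receptors and related proteins 11 passed the filter. Of these, 4 were called lower in osteosarcoma and 3 in soft tissue sarcoma. Among all tested genes 11% and 9.4% were called lower and 21.5% and 19.3% either way. The count in osteosarcoma was 1 without either NG2 cell library or either soft tissue sarcoma library. That in soft tissue sarcoma was 1 without either NG2 cell library and 0 without either soft tissue sarcoma library, with 3 and 4 at an unadjusted p under 0.05. Fcmr, the IgM receptor of B cells, stood at 108 and 28.3 CPM in NG2 cells, with 0 counts in the osteosarcomas and 0.185 and 0.303 CPM in the soft tissue sarcomas. Fcrla, a B cell protein related to Fc receptors, stood at 117 and 49.5 CPM in NG2 cells against at most 1.07 CPM in a tumour. Fcgr2b, the inhibitory IgG receptor of B cells and myeloid cells, stood at 92.9 and 96.3 CPM in NG2 cells. The osteosarcomas held 23.1 and 8.78 CPM of it and the soft tissue sarcomas 114 and 142 CPM. Fcgr2b was called lower in osteosarcoma (edgeR adjusted p = 0.0209), and in soft tissue sarcoma its edgeR adjusted p was 0.531. Between the tumour types its log2 fold change was 2.998 ± 0.50 (SE), with an adjusted p of 0.0868 by edgeR, 0.0208 by edgeR without the low-count filter and 2.77e-06 by DESeq2. Over all alternatives edgeR's adjusted p for it ranged from 0.0208 to 0.396. Fcamr, a receptor for IgA and IgM, stood at 1.25 and 0.688 CPM in NG2 cells with 0 counts in the tumours, and Fcer1a, of the IgE receptor, at 2.19 and 26.4 CPM against at most 1.93 CPM. Between the tumour types 0 genes of these 4 lists were called by edgeR, with 4, 3, 1 and 3 at an unadjusted p under 0.05 and 4, 2, 1 and 2 called by DESeq2, in the order given above, beside 15.9% and 10.4% of all genes tested.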

How the data were processed

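RNA was reverse transcribed with an oligo(dT) primer and template switching, amplified by PCR and sequenced in pairs, per the labels' protocols. Each deposited table held whole-number read counts by Ensembl gene for 1 library, and its counters of unassigned reads were left out of library sizes. The submitters' processing notes name STAR and HTSeq, Trim Galore with cutadapt, FastQC, DESeq2 and the builds GRCm38 and mm10; roles, versions, strand setting and annotation release were not given in the sources used here. The counter of reads aligned to several places was 0 in each table; how such reads were handled was not given, so close copies can lose reads or share them.

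Symbols, coordinates and coding sequences came from GENCODE M21 (GRCm38). The main test was edgeR 4.0.16 (quasi-likelihood F test, TMM scaling, filterByExpr with a minimum of 10 counts and 15 in total) in 1 model of the 3 groups, with Benjamini-Hochberg adjustment over 19024 tested genes. DESeq2 1.42.0 was an alternative, and R 4.3.3, Python 3.11.15 and scipy 1.17.1 were used. The model was tested on simulated data with known changes. Shares carry exact (Clopper-Pearson) 95% intervals, and a count of 0 was set to a floor of 3 counts over the group for folds. Trp53 stood at 101 and 82.3 CPM in NG2 cells against 24.3 to 32.6 CPM in the tumours; whole-gene counts check the deletion only weakly.

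Members and lists were chosen with earlier results of these data known. Named genes were all constant regions, the 8 heavy chain and 8 kappa V genes of largest mean share in NG2 cells, all lambda V genes, the 2 highest J and D genes, and up to 5 genes per list by p in osteosarcoma against NG2 cells; some genes of the lists are not reported here by name. Other genes named from the lists, and Ighv11-2, were chosen after their values were seen. Those from the lists were Derl3, Tnfrsf17, Tnfrsf13c, Xbp1, Prdm1, Sdc1, Hsp90b1, Rag1, Rag2, Dntt, Igll1, S1pr2, Alas2 and Hbb-bs.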

Additional observations from a re-analysis of the deposited data

How the results depend on the processing

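Counts of called genes are given for DESeq2, no low-count filter, the replicate block and single libraries left out. Those for another scaling (RLE) and for library sizes without the immunoglobulin genes are not given here. Direction was checked against NG2 cells for Cspg4, Trp53 and the genes picked by p from the 4 lists. Between the tumour types it was checked for Ighm, Ighg1, Igkc and Igha. None of these changed direction, but some lost or gained a call. The order of the NG2 cell libraries in the kappa share did turn between constant regions (89.7% and 96.0%) and V segments (96.8% and 89.3%). DESeq2 called 9 antibody secretion and 8 recombination and switching genes in osteosarcoma, from lists of 15 each. In soft tissue sarcoma it called 6 receptor genes, from a list of 12. Between the tumour types it called 9 immunoglobulin, 4 B cell, 2 secretion, 1 recombination and 2 receptor genes. Over all genes it called 3395 higher and 3593 lower of 19476 tested in osteosarcoma. The numbers were 3189 and 3330 of 19981 in soft tissue sarcoma, and 1140 and 775 of 18466 between the tumour types. In each comparison DESeq2 thus called more of all genes than edgeR did. Without the low-count filter 1 immunoglobulin, 1 B cell and 1 receptor gene were called between the tumour types, with 247 genes higher and 162 lower in all. With the replicate number as a block, immunoglobulin calls numbered 125 in osteosarcoma, 114 in soft tissue sarcoma, receptor calls 2 and 1, and recombination calls 3 in soft tissue sarcoma; over all genes they were 1247 higher and 1413 lower, 1105 and 1104, and 4 and 4. Same-numbered libraries shared only a number (correlations of deviations 0.049, -0.003 and -0.086).

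When single libraries were left out, calls in osteosarcoma ranged from 57 to 122 for immunoglobulin, 12 to 15 for B cell, 5 to 7 for secretion, 3 to 5 for recombination and 1 to 3 for receptor genes. In soft tissue sarcoma they ranged from 0 to 167, 0 to 15, 0 to 7, 0 to 6 and 0 to 3. Between the tumour types receptor calls were 0 to 1. The 0 arose without either soft tissue sarcoma library, where 0 of 20439 and 20760 tested genes were called in that comparison and 4510 and 4286 had an unadjusted p under 0.05; the lone library is then assumed to vary like the other groups. Over all genes, calls in osteosarcoma were fewer than in the main test whichever library was left out. In soft tissue sarcoma they were fewer without an NG2 cell or soft tissue sarcoma library and more without an osteosarcoma library. The IgM share ranged from 38.6% to 81.9% and the kappa share from 89.7% to 96.0%. Relative to all heavy chain members Ighm held 52.5% ± 24.5 (SD, n = 2), and kappa held 93.0% ± 5.33 by V segments alone, a setting chosen after seeing the data. With 2 libraries per group and member counts of 216 to 5285 per tumour, small differences among tumours were not detectable.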

Other observations

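V segments near the J segments carried more of the counts than their number. Weighted by counts, the median distance from a heavy chain V member to the J segments was 723 kb in both NG2 cell libraries, while the median over the 95 members was 1154 kb. For kappa it was 822 kb in replicate 1 and 648 kb in replicate 2, against 1305 kb over the 91 members. Of the kappa V members 37 of 91 (40.7%) lie on the strand of the J segments, and they held 28.3% and 26.9% of kappa V counts.

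Igkv11-106, the kappa V member annotated as a pseudogene, had 889 and 2912 counts in NG2 cells. Ighv6-3 had 13 and 9 counts in the osteosarcomas, out of 37 and 22 V segment counts there, and 0 in both soft tissue sarcomas.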
